A study of Mus musculus with 6 samples.

Results

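Peaks that lie in long interspersed nuclear elements (LINEs) were collected from 6 chromatin immunoprecipitation sequencing (ChIP-seq) peak lists of mouse neural stem cells. A peak was a member when the deposited annotation of its position named a LINE repeat, written as name, class and family. This gave 21865 of the 97783 peaks of the 6 lists, or 22.4%, under 137 repeat names in 6 families. The cells were primary neural stem cells grown from the cortex of newborn mice with EGF and bFGF, and each list came from 1 library. Chd4 was the target in 4 libraries: iKO (genotype mutant, treated with 4-OH-TAM, the tamoxifen metabolite that switches on inducible Cre), Ctrl (wild type, growth medium), siSeh1 (wild type, growth medium) and siSCR (wild type, growth medium). Seh1 was the target in the other 2: Seh1-flag (titled iKO, genotype wild type, treated with 4-OH-TAM) and Seh1 Ctrl (wild type, growth medium). The labels do not spell out iKO, siSeh1 and siSCR, and they are read here as deletion of Seh1, its silencing and the control of the silencing. The iKO and Ctrl libraries differ in genotype and in 4-OH-TAM treatment at once, so deletion and treatment cannot be told apart. Seh1-flag and Seh1 Ctrl also differ in 4-OH-TAM treatment and, by title, in the flag tag. Treatment, tag and any difference in pull-down cannot be told apart. Seh1 Ctrl is therefore a comparison list for Seh1-flag and not a matched control. The promoter driving any Cre, and how many animals were pooled, were not given in the sources used here. For the Seh1-flag library, the title and the genotype do not match, and its list's header carries oe before the gene name, so whether the cells' own Seh1 was present cannot be told. A peak list holds no cell type markers, so the cell identity could not be checked.

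LINEs are retrotransposons that spread through the genome by copying their RNA back into DNA. In the mouse nearly all belong to the L1 family, of which the L1Md_A, L1Md_T and L1Md_Gf groups still hold copies able to move, while Lx elements spread in early murine rodents and the L1M and L2 elements are remnants shared with other mammals. L1 elements are known to be transcribed in neural progenitors, and the cell keeps young copies silent by DNA methylation and repressive chromatin. Chd4 is a chromatin remodelling ATPase and the motor subunit of NuRD, a repressive complex that also removes acetyl groups from histones. Seh1 is a nuclear pore protein that belongs to the Y complex of the pore scaffold. The study asked how loss of Seh1 affects gene regulation in neural stem cells, and Chd4 was profiled with and without Seh1.

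A promoter sequence table from RefSeq (GRCm38.p6, the assembly behind mm10) covered the annotated peak position of 2 LINE peaks, and these stretches are printed because they are the peak positions whose reference sequence was at hand. The 21 bases around the annotated peak position are in capitals. The first lies at chr2:132187292-132187472 on the plus strand, upstream of the predicted gene Gm14051, and carries an Lx7 peak of the Chd4 siSeh1 list at position 132187411 with a score of 2.36. The other lies at chr4:52617882-52618131 on the minus strand, upstream of the predicted gene Gm33435, and carries an Lx2B2 peak of the Seh1 Ctrl list centred on position 52618003.
Gm14051, Lx7: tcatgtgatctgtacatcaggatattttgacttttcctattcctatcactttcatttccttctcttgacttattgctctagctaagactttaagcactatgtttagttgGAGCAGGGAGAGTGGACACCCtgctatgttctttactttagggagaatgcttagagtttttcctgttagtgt
Gm33435, Lx2B2: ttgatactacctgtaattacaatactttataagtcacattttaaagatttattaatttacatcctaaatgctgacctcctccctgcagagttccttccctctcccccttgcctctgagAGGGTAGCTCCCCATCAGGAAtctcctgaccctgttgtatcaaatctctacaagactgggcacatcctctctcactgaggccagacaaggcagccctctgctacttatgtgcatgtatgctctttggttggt
The stretch at Gm14051 was 181 bases long with 38.1% G and C, and that at Gm33435 was 250 bases long with 44.8%. Neither held a CG dinucleotide. The borders of the elements are not in the files, so how much of each stretch is Lx sequence is not known.

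The Chd4 lists held 21294 peaks in iKO, 1154 in Ctrl, 26935 in siSeh1 and 2606 in siSCR, and the Seh1 lists held 24961 peaks in Seh1-flag and 20833 in Seh1 Ctrl. With 1 library per group there is no replicate check, no test between conditions can be run, and the intervals given are exact Clopper-Pearson 95% intervals that cover counting error only. Sequencing depth is not in the lists, and the lists compared differ up to 18.5-fold in length. Recent copies of the L1Md_A, L1Md_T and L1Md_Gf groups are nearly identical to each other. The placement of reads that match several copies was not given in the sources used here, so such a copy and its close relatives cannot be told apart. How far this limit holds for the other L1Md names was not tested. Repeat names stood only on peaks annotated as intronic or intergenic or with no gene annotation, so a LINE inside an exon or a promoter annotation is not counted. LINE peaks were therefore also taken as a share of intronic and intergenic peaks, a setting added after seeing the data.

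LINE peaks were a smaller share of the list in each perturbed Chd4 library than in its control. They were also a smaller share in Seh1-flag than in Seh1 Ctrl, where the tag differs too. In Chd4 iKO, 5176 of 21294 peaks lay in LINEs (24.3%, interval 23.7 to 24.9), against 391 of 1154 in Chd4 Ctrl (33.9%, 31.2 to 36.7). The difference was -9.57 percentage points (Newcombe interval -12.4 to -6.84). In Chd4 siSeh1, 5031 of 26935 peaks lay in LINEs (18.7%, 18.2 to 19.1), against 619 of 2606 in siSCR (23.8%, 22.1 to 25.4), a difference of -5.07 points (-6.81 to -3.41). In Seh1-flag the count was 5416 of 24961 (21.7%, 21.2 to 22.2), against 5232 of 20833 in Seh1 Ctrl (25.1%, 24.5 to 25.7), a difference of -3.42 points (-4.20 to -2.64). The number of LINE peaks was nevertheless 13.2 times that of Ctrl in iKO and 8.13 times that of siSCR in siSeh1, while all peaks together were 18.5 and 10.3 times as numerous. Among intronic and intergenic peaks alone the LINE share was 26.7% in iKO and 34.8% in Ctrl, 21.5% in siSeh1 and 28.8% in siSCR, and 22.5% in Seh1-flag and 26.1% in Seh1 Ctrl.

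**Figure D1:**
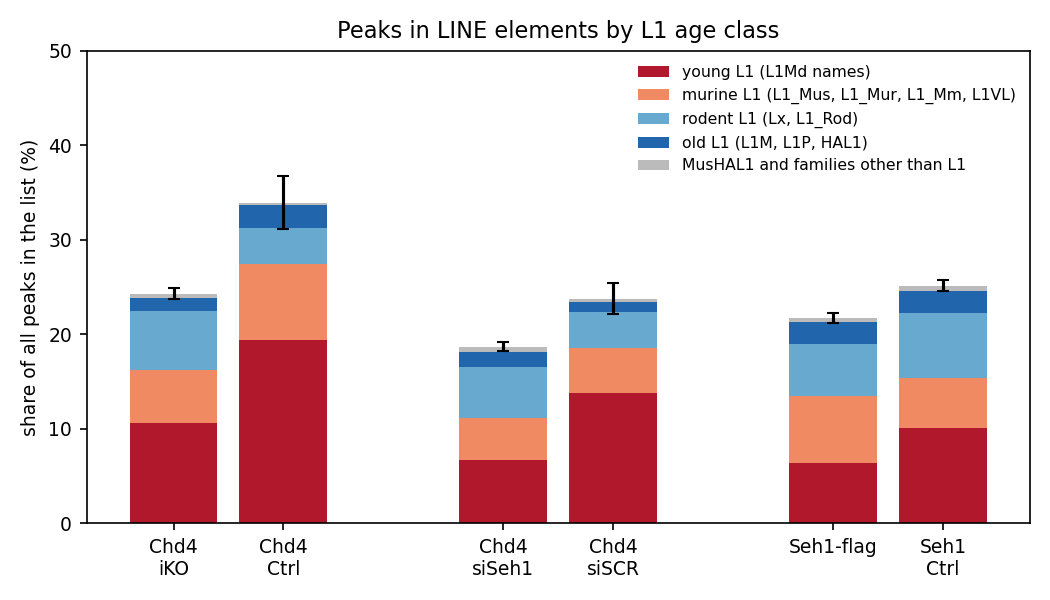
LINE peaks as a share of all peaks in each of the 6 lists, stacked by L1 age class. The perturbed or tagged list stands left of the list it is set against. Bars on top are exact 95% intervals of the whole LINE share. Chd4 Ctrl reaches 33.9% and Chd4 siSeh1 18.7%, and the young L1 part is the smaller one in the left list of each pair.

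The control Chd4 lists, Ctrl and siSCR, differed from each other by as much as iKO did from Ctrl. LINE peaks made up 33.9% of Ctrl and 23.8% of siSCR, a difference of 10.1 points (6.98 to 13.3). Set against siSCR, a choice made after seeing the data, iKO was 0.554 points higher (-1.21 to 2.25), so the direction of the deletion difference in LINE share depends on which control is used. Among the other interspersed repeats, short interspersed elements (SINEs) made up a higher share in the perturbed or tagged list of each pair. Long terminal repeat (LTR) elements made up a lower share in siSeh1 than in siSCR and in Seh1-flag than in Seh1 Ctrl. SINEs were 6.27% of iKO and 3.81% of Ctrl peaks, 6.91% of siSeh1 and 4.57% of siSCR peaks, and 15.1% of Seh1-flag and 7.29% of Seh1 Ctrl peaks. LTR elements were 14.2% of iKO (13.7 to 14.6) and 12.3% of Ctrl peaks (10.5 to 14.3), whose intervals overlap, 12.4% of siSeh1 and 17.7% of siSCR peaks, and 6.97% of Seh1-flag and 12.6% of Seh1 Ctrl peaks.

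L1 elements were 97.6% to 99.5% of the LINE peaks in all 6 lists. They were sorted by name into young L1 (L1Md names), murine L1 (L1_Mus, L1_Mur, L1_Mm and L1VL), rodent L1 (Lx and L1_Rod) and old L1 (L1M, L1P and HAL1), and MusHAL1 was left out of the classes. Young L1 was the largest class in 5 lists, the exception being Seh1-flag, where murine L1 was larger. It made up 2268 of 5086 L1 peaks in iKO (44.6%, 43.2 to 46.0), against 224 of 389 in Ctrl (57.6%, 52.5 to 62.5), a difference of -13 points (-18.0 to -7.84). It made up 1812 of 4909 L1 peaks in siSeh1 (36.9%, 35.6 to 38.3), against 359 of 612 in siSCR (58.7%, 54.6 to 62.6), a difference of -21.7 points (-25.8 to -17.6). In Seh1-flag it was 1583 of 5375 (29.5%, 28.2 to 30.7), against 2090 of 5135 in Seh1 Ctrl (40.7%, 39.4 to 42.1), a difference of -11.3 points (-13.1 to -9.43). The control Chd4 lists differed by only -1.08 points (Ctrl minus siSCR, -7.35 to 5.15).

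The groups of young L1 that still hold mobile copies differed by more points than young L1 as a whole in the Chd4 pairs. L1Md_A, L1Md_T and L1Md_Gf together made up 25.5% of L1 peaks in iKO and 44.0% in Ctrl (-18.5 points, -23.6 to -13.5), 18.4% in siSeh1 and 45.3% in siSCR (-26.9 points, -31.0 to -22.8), and 12.6% in Seh1-flag and 23.5% in Seh1 Ctrl (-10.9 points, -12.4 to -9.47). Rodent L1 moved the other way in the Chd4 pairs, with 26.0% in iKO against 11.3% in Ctrl (difference 14.6 points, 10.9 to 17.7) and 30.0% in siSeh1 against 16.3% in siSCR (13.7 points, 10.3 to 16.7). The control lists differed here too, by -5.03 points (Ctrl minus siSCR, -9.22 to -0.571). With siSCR as its control, chosen after seeing the data, iKO was 9.61 points higher in rodent L1 (6.26 to 12.6). The classes are shares of the same L1 peaks, so a lower young share goes with higher shares elsewhere. In the Seh1 pair rodent L1 was 25.4% in Seh1-flag and 27.6% in Seh1 Ctrl, and the classes that were higher were murine L1, at 33.0% in Seh1-flag against 21.8% in Seh1 Ctrl (11.2 points, 9.52 to 12.9), and old L1 (1.66 points, 0.497 to 2.82). Murine L1 was 23.3% in iKO, 23.9% in Ctrl, 24.0% in siSeh1 and 20.1% in siSCR. Old L1 was 5.92% in iKO and 7.20% in Ctrl, 8.62% in siSeh1 and 4.58% in siSCR, and 11.1% in Seh1-flag and 9.48% in Seh1 Ctrl.

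**Figure D2:**
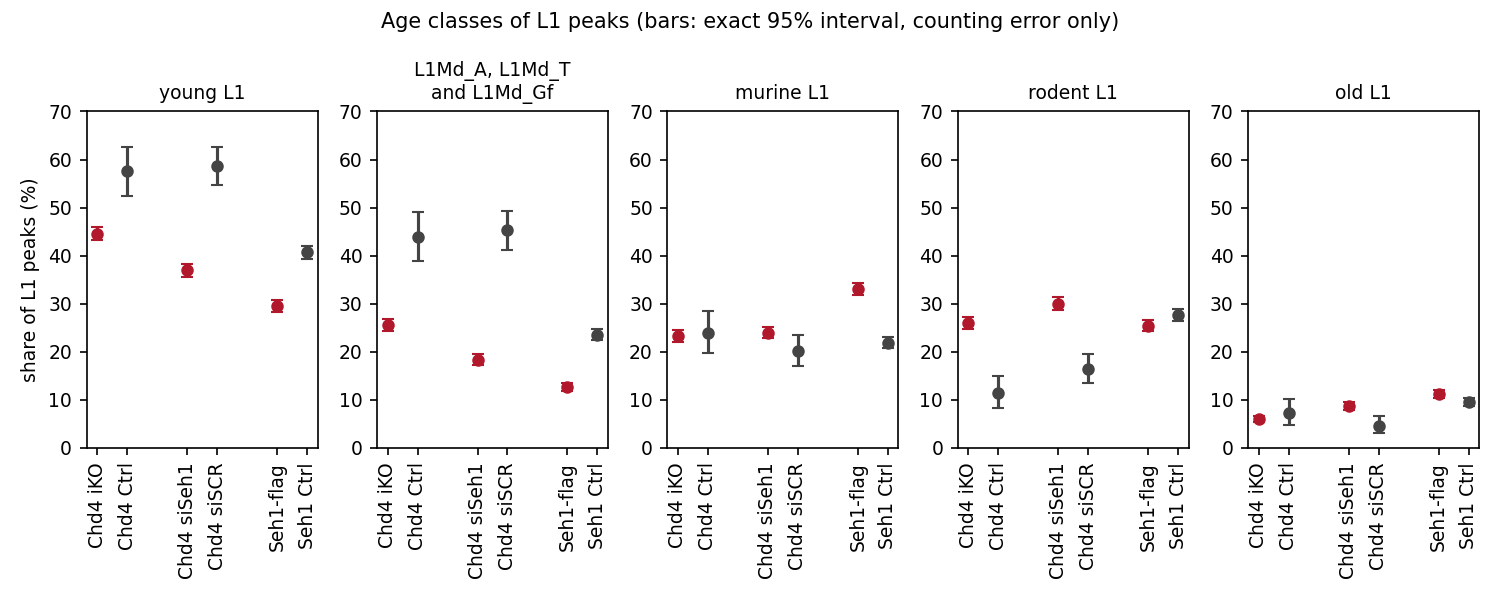
Share of L1 peaks in each age class for the 6 lists, with exact 95% intervals (red for perturbed or tagged lists, grey for the lists they are set against). Young L1 and the L1Md_A, L1Md_T and L1Md_Gf group are lower in the left list of each pair, rodent L1 is higher in both Chd4 pairs, and murine L1 is higher in Seh1-flag, at 33.0%, than in Seh1 Ctrl, at 21.8%.

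The young share was recomputed with lists of equal length. When the longer list was cut to the length of the shorter one by score, the 1154 highest-scoring iKO peaks held 128 LINE peaks (11.1%), and 81 of their 127 L1 peaks were young (63.8%), against 57.6% in Ctrl, a difference of 6.20 points whose interval includes 0 (-3.70 to 15.5). The 2606 highest-scoring siSeh1 peaks held 217 LINE peaks (8.33%), and 97 of their 211 L1 peaks were young (46.0%), against 58.7% in siSCR, a difference of -12.7 points (-20.3 to -4.88). The lower young share of iKO was thus not seen among its highest-scoring peaks, while its LINE share was lower than that of Ctrl there too. The shortened lists differ from the whole ones in length and in score at once, so which of these goes with the shift cannot be told apart.

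By single names, L1Md_F2 and L1Md_T led the lists. L1Md_F2, a young L1 group, was the most frequent name in iKO (759 of 5176 LINE peaks, 14.7%), siSeh1 (733, 14.6%), Seh1-flag (719, 13.3%) and Seh1 Ctrl (716, 13.7%). L1Md_T was the most frequent in Ctrl (105 of 391, 26.9%) and siSCR (173 of 619, 27.9%), with L1Md_A next at 60 peaks in Ctrl and 98 in siSCR. The first 6 names held 53.7% of LINE peaks in iKO, 70.1% in Ctrl, 46.1% in siSeh1 and 67.9% in siSCR. L1_Mus3 and L1_Mus1, of the murine class, were among the first 6 in every list. L1Md_T, with 722 peaks in iKO, was 13.9% of its LINE peaks (13 to 14.9), against 26.9% in Ctrl (22.5 to 31.5), and L1Md_A, with 548 peaks in iKO, was 10.6% (9.76 to 11.5), against 15.3% in Ctrl (11.9 to 19.3).

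A name was compared when it had at least 20 peaks in both lists together, and was called when its share of LINE peaks differed by at least 2-fold. Of 40 names compared between iKO and Ctrl, 14 were higher in iKO (35.0%) and 1 was lower (2.50%). All 40 reached 20 peaks in iKO alone, which holds 5176 LINE peaks against 391 in Ctrl. A name such as L1MD was not compared, with 4 peaks (1.02%) in Ctrl and 6 (0.116%) in iKO. The counts of higher and lower names therefore depend on this filter and cannot be set against each other. A name with 0 peaks in a list was counted there as 3 peaks, and many calls rest on 1 or 2 Ctrl peaks. With names at 1 or 2 peaks also set to 3, a choice made after seeing the data, 7 were higher in iKO, which were Lx, Lx8, Lx2, Lx3_Mus, Lx5, L1Md_F3 and L1_Mus2, and 1 was lower. Of the 14, 9 were rodent Lx names out of 19 compared. Lx, with 154 peaks, was 2.98% of LINE peaks in iKO (2.53 to 3.48), against 3 peaks and 0.767% in Ctrl (0.159 to 2.23), and Lx8, with 125 peaks, was 2.41% in iKO (2.01 to 2.87), against 1 peak and 0.256% in Ctrl (0.00647 to 1.42). Among the 15 names called, the intervals of iKO and Ctrl were apart for Lx and Lx8. Lx6, with 64 peaks in iKO and 0 in Ctrl, also had intervals apart but was not called, since its ratio against 3 peaks was 1.61. L1Md_F3 and L1_Mus2 each had 155 peaks and 2.99% in iKO, against 5 peaks and 1.28% in Ctrl, and Lx2 had 106 peaks and 2.05% in iKO, against 2 peaks and 0.512% in Ctrl. The name called lower was L1Md_Gf, with 27 peaks and 0.522% in iKO, against 6 peaks and 1.53% in Ctrl.

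Of 45 names compared between siSeh1 and siSCR, 17 were higher in siSeh1 (37.8%) and 4 were lower (8.89%). The filter again rests mostly on the longer list, since siSeh1 holds 5031 LINE peaks against 619 in siSCR. A name such as L1MB7 was not compared, with 11 peaks (0.219%) in siSeh1 and 3 (0.485%) in siSCR. The counts of higher and lower names cannot be set against each other here either. With names at 1 or 2 peaks also set to 3, the counts were 11 and 4. The names called lower with intervals apart were the young L1Md_T and L1Md_A. L1Md_T had 533 peaks and 10.6% in siSeh1 (9.76 to 11.5), against 173 peaks and 27.9% in siSCR (24.4 to 31.7), and L1Md_A had 338 peaks and 6.72% in siSeh1 (6.04 to 7.45), against 98 peaks and 15.8% in siSCR (13 to 19). L1_Mm and Lx2A1 were also called lower, with 33 and 18 peaks in siSeh1 against 9 and 8 in siSCR. Of the 17 called higher, 10 were rodent Lx names out of 21 compared. Lx8 had 151 peaks and 3.0% in siSeh1 (2.55 to 3.51), against 6 peaks and 0.969% in siSCR (0.357 to 2.10). L1_Mus2 had 160 peaks and 3.18% in siSeh1 (2.71 to 3.70), against 7 peaks and 1.13% in siSCR (0.456 to 2.32). Lx7, Lx9 and L1_Mur3 followed, with 121, 115 and 89 peaks in siSeh1 against 7, 7 and 5 in siSCR, and their intervals overlap. Lx8b had 76 peaks and 1.51% in siSeh1 (1.19 to 1.89), against 1 peak and 0.162% in siSCR (0.00409 to 0.897). Among the 17 called higher, the intervals were apart only for Lx8, L1_Mus2 and Lx8b. The young names did not move as one: L1Md_F2 was 14.6% in siSeh1 (13.6 to 15.6) and 10.7% in siSCR (8.34 to 13.4), and L1Md_F3 was 2.25% in siSeh1 and 1.78% in siSCR.

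**Figure D3:**
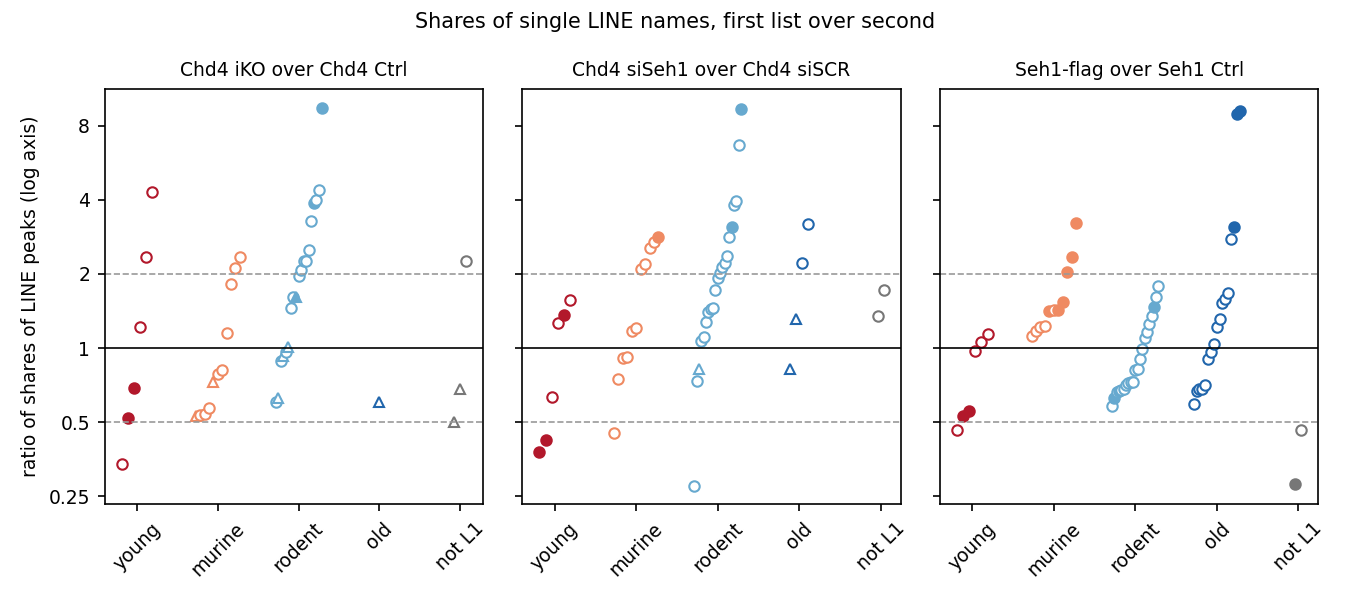
Ratio of each LINE name's share of LINE peaks in the first list to that in the second, by class, on a log axis (MusHAL1 not drawn). Filled points have exact 95% intervals that do not overlap, triangles are lower bounds for names absent from the second list (counted there as 3 peaks), and dashed lines mark 2-fold. The median ratio of rodent names is 1.96 in iKO over Ctrl, 1.92 in siSeh1 over siSCR and 0.814 in Seh1-flag over Seh1 Ctrl. Medians cover only names with at least 20 peaks in both lists together, a filter met mostly through the longer list in the Chd4 pairs.

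The median ratio of shares, with names absent from the control list entered there at 3 peaks, was 1.96 for the 19 rodent names and 1.19 for all 40 names in iKO over Ctrl. In siSeh1 over siSCR it was 1.92 for 21 rodent names and 1.44 for all 45. For the 6 young names it was 0.955 in iKO over Ctrl and 0.950 in siSeh1 over siSCR, and the large groups L1Md_T and L1Md_A were the young names with low ratios and intervals apart. These medians cover only names that passed the filter, which rests mostly on the longer list. Names rare in that list are missing, so ratios above 1 are favoured. Counts of 1 or 2 were kept while 0 was set to 3. Lx2B, with 40 peaks in iKO and 0 in Ctrl, thus had a ratio of 1.01, and Lx2B2, with 58 and 1, had 4.38.

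The Seh1 lists were compared over 58 names. In Seh1-flag 8 names were higher (13.8%) and 3 were lower (5.17%). The murine L1_Mur1, L1_Mur2 and L1_Mur3 were all called higher, and all 11 murine names had ratios above 1. L1_Mur3 had 212 peaks and 3.91% in Seh1-flag (3.41 to 4.47), against 101 peaks and 1.93% in Seh1 Ctrl (1.57 to 2.34). L1_Mur2 had 201 peaks and 3.71% in Seh1-flag (3.22 to 4.25), against 83 peaks and 1.59% in Seh1 Ctrl (1.27 to 1.96), and L1_Mur1 had 93 peaks and 1.72%, against 28 peaks and 0.535%. MusHAL1 had 52 peaks in Seh1-flag against 20 in Seh1 Ctrl. The old L1MEd and L1MEg had 38 and 37 peaks in Seh1-flag, against 4 each in Seh1 Ctrl, and these gave the widest ratios of the pair, 9.18 and 8.94. The 3 names called lower were L1Md_Gf (13 peaks in Seh1-flag against 27 in Seh1 Ctrl) and the ancient L2 and L2a (15 and 9 peaks in Seh1-flag against 31 each in Seh1 Ctrl). L1Md_T, although short of the 2-fold limit, was 7.48% of LINE peaks in Seh1-flag (6.79 to 8.21) and 13.5% in Seh1 Ctrl (12.6 to 14.5). The 2 lists also differ in form, since Seh1 Ctrl holds intervals and Seh1-flag single positions, and whether this moves the names was not tested.

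Families other than L1 were rare. L2 elements had 80 peaks in iKO and 2 in Ctrl, 109 in siSeh1 and 7 in siSCR, and 31 in Seh1-flag and 84 in Seh1 Ctrl. All families other than L1 together were 1.74% of LINE peaks in iKO and 0.512% in Ctrl, 2.43% in siSeh1 and 1.13% in siSCR, and 0.757% in Seh1-flag and 1.85% in Seh1 Ctrl. CR1 elements had 9 peaks in iKO, 9 in siSeh1, 9 in Seh1-flag and 12 in Seh1 Ctrl and none in the short lists.

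The deposited peak score, which has no stated scale and was used only within a list, placed LINE peaks low in iKO, siSeh1, siSCR and Seh1-flag but not in Ctrl. From the highest-scoring to the lowest-scoring quartile of a list, the LINE share was 21.9% and 26.3% in iKO (difference -4.42 points, -6.04 to -2.79) and 34.9% and 33.0% in Ctrl (1.96 points, -5.74 to 9.63). It was 15% and 20.1% in siSeh1 (-5.10 points, -6.38 to -3.81) and 18.1% and 24.0% in siSCR (-5.87 points, -10.3 to -1.44), and 19% and 26.1% in Seh1-flag (-7.18 points, -8.64 to -5.72). Among the 1000 highest-scoring peaks, LINEs held 10.1% in iKO (8.30 to 12.1), against 34.8% in Ctrl (31.8 to 37.8). They held 0.90% in siSeh1 (0.412 to 1.70), against 19.4% in siSCR (17.0 to 22.0), and 18.2% in Seh1-flag (15.9 to 20.7). Ctrl holds only 1154 peaks, so its first 1000 are nearly the whole list. Among the first 100 peaks the LINE count was 2 in iKO and 34 in Ctrl, 0 in siSeh1 (upper bound 3.62%) and 9 in siSCR, and 10 in Seh1-flag. The median LINE score equalled that of all other peaks in iKO (3.39) and in Ctrl (3.66), and was lower in siSeh1 (3.35 for LINE peaks and 3.41 for the others), siSCR (3.18 and 3.42) and Seh1-flag (4.50 and 4.68). The other peaks include those annotated as promoter, which carry no repeat name. Set against intronic and intergenic peaks outside LINEs alone, the median LINE score was the same in all 4 Chd4 lists, at 3.39 in iKO, 3.66 in Ctrl, 3.35 in siSeh1 and 3.18 in siSCR, and lower in Seh1-flag, at 4.50 against 4.68.

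Within L1, the young share was higher in the highest-scoring quartile than in the lowest in iKO, Ctrl and siSCR. In the highest-scoring quartile 49.1% of L1 peaks were young in iKO (46.2 to 52.0), against 44.1% in its lowest quartile (41.4 to 46.7), a difference of 5.02 points (1.12 to 8.90). The highest and lowest quartiles held 70.3% (60.4 to 79.0) and 52.1% (41.6 to 62.5) young L1 in Ctrl, 39.9% (36.8 to 43.0) and 38.2% (35.6 to 40.9) in siSeh1, and 70.3% (61.2 to 78.4) and 54.9% (46.7 to 62.9) in siSCR. The difference was 18.2 points in Ctrl (4.49 to 31.0) and 15.4 points in siSCR (3.78 to 26.3), while in siSeh1 it was 1.65 points with an interval that includes 0 (-2.37 to 5.68). Seh1-flag ran the other way, with 21.3% young L1 in its highest quartile (19 to 23.8) and 36.6% in its lowest (34.2 to 39.0), a difference of -15.3 points (-18.5 to -11.9). All scores in Seh1 Ctrl are 0, so it has no ranking.

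**Figure D4:**
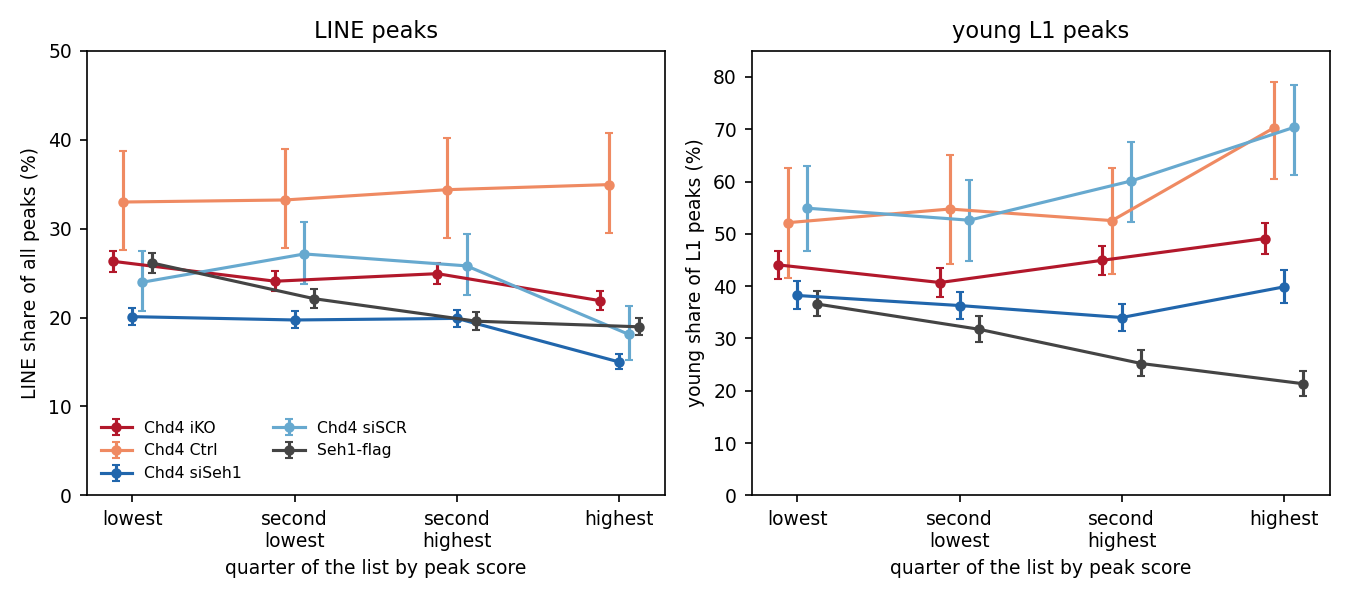
LINE share of all peaks (left) and young share of L1 peaks (right) in 4 parts of each list ordered by peak score, from lowest to highest, with exact 95% intervals. The young share reaches 70.3% at the top of both Ctrl and siSCR, while in Seh1-flag it is 21.3% at the top and 36.6% at the bottom.

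The 5 strongest LINE peaks of each Chd4 list were in L1Md_T or L1Md_A, except for an L1Md_F3 peak in siSeh1, while those of Seh1-flag were in L1Md_T, Lx and L1Md_F2. The peak of highest score in the whole Ctrl list, at 35.5, was an L1Md_T element in an intron of Ctnnd2 (chr15:30222047, mm10), the gene of the neuronal junction protein delta-catenin. The same element carried the peak ranked 3 in siSCR, with a score of 26.8 at position 30222080, and a peak in Seh1-flag, but none in iKO or siSeh1. Such absence was the rule, since 1.21% of all Ctrl peaks overlapped an iKO peak and 1.65% a siSeh1 peak. For Ctrl LINE peaks the shares were 1.53% and 2.05%. In iKO the strongest LINE peaks were intergenic L1Md_T elements at chr7:124464309 (score 24.1, rank 16) and chr6:67576988 (24.0, rank 17). Both were also the strongest LINE peaks of Seh1-flag, at positions 124464381 (31.4, rank 21) and 67576966 (28.7, rank 28), and neither was in any other list. The next LINE peak of iKO came at rank 187, an L1Md_A element on chromosome X near Cldn34d. In siSeh1 the first LINE peak came at rank 131, an L1Md_A element at chr7:87512911 near Tyr, the tyrosinase gene, with a score of 17.5, and it was shared with siSCR. The next was at rank 596. In siSCR the L1Md_A element at chr7:103288599 near the olfactory receptor gene Olfr596 scored 17.3 (rank 14) and an L1Md_T element in an intron of Deptor, which encodes an inhibitor of mTOR kinase, scored 15.8 (rank 18). In Seh1-flag the third strongest was an Lx element in an intron of the pseudogene Speer8-ps1 (25.4, rank 42). This element lies in a stretch of 200 kb (chr5:14800001-15000000) that held 56 Seh1-flag peaks.

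LINE peaks were rarely found at the same place in different lists. Peaks were counted as shared when windows of 240 bp overlapped by at least 1 bp, with the Seh1 Ctrl intervals kept as deposited. Of 5176 iKO LINE peaks, 30 overlapped a siSeh1 peak (0.580%, 0.391 to 0.826), although 4.79% of all iKO peaks did. The overlap was 1.88% for iKO peaks in introns and intergenic regions outside LINEs (1.66 to 2.12) and 56.9% for iKO peaks within 1 kb of a transcription start site (54.1 to 59.6). Seen from the other list, 27 of 5031 siSeh1 LINE peaks overlapped an iKO peak (0.537%), against 3.79% of all siSeh1 peaks. By age, 16 of 2268 young L1 peaks of iKO (0.705%, 0.404 to 1.14) and 11 of 2818 other L1 peaks (0.390%, 0.195 to 0.697) were shared with siSeh1. The 5 most frequent names were the same in all 6 lists, while few LINE peaks shared a position.

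Within each pair of lists the overlap was also small. In iKO 6 LINE peaks of 5176 overlapped a Ctrl peak (0.116%), against 0.0657% of all iKO peaks, and these were 6 of the 391 LINE peaks of Ctrl (1.53%, 0.565 to 3.31), against 1.21% of all Ctrl peaks. In siSeh1 12 LINE peaks of 5031 overlapped a siSCR peak (0.239%), against 1.53% of all siSeh1 peaks, and these were 12 of 619 in siSCR (1.94%, 1.01 to 3.36), against 15.8% of all siSCR peaks and 5.24% of its intronic and intergenic peaks outside LINEs. In Seh1-flag 45 LINE peaks of 5416 overlapped a Seh1 Ctrl peak (0.831%, 0.607 to 1.11), against 0.705% of all Seh1-flag peaks, and 44 of 5232 Seh1 Ctrl LINE peaks overlapped Seh1-flag (0.841%), against 0.845% of all Seh1 Ctrl peaks. The number a list can share rises with the length of the other list, so these shares are compared only within a pair of lists.

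**Figure D5:**
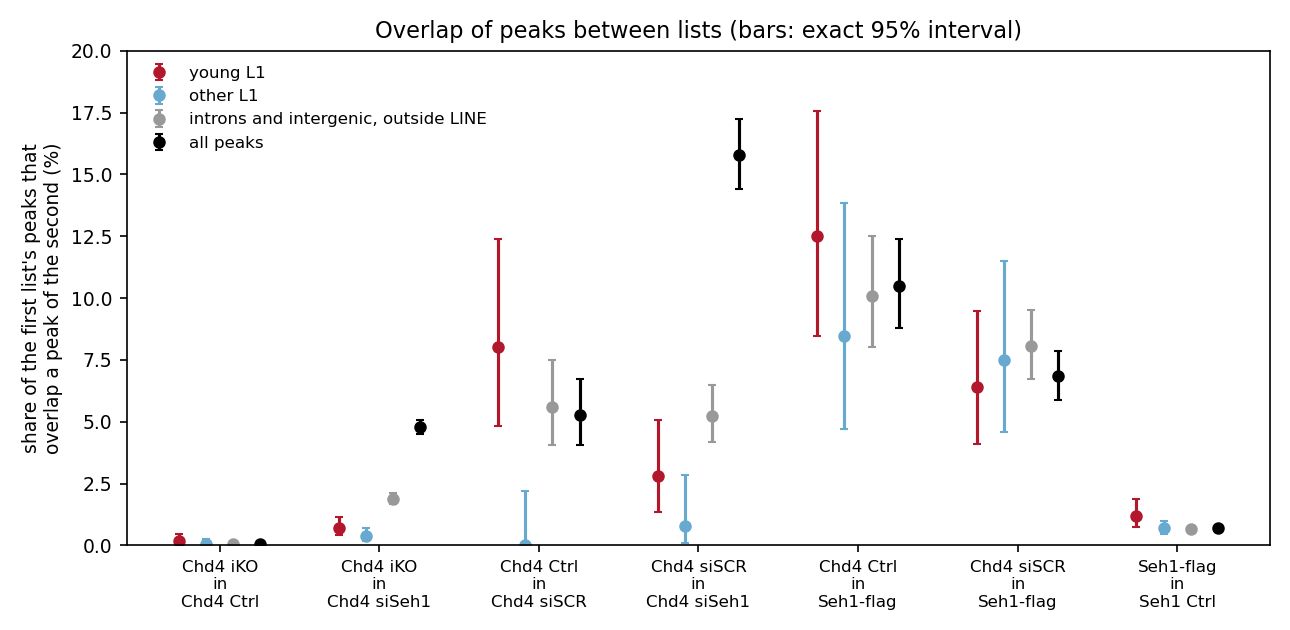
Share of the first list's peaks that overlap a peak of the second list, for young L1, other L1, intronic and intergenic peaks outside LINEs, and all peaks, with exact 95% intervals. Young L1 peaks of Ctrl overlap siSCR at 8.04% and other L1 peaks at 0, while in siSCR against siSeh1 all peaks reach 15.8% and young L1 peaks 2.79%.

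The LINE peaks shared by the control Chd4 lists were in young L1, with 1 exception seen from siSCR. Of 391 Ctrl LINE peaks, 18 overlapped a siSCR peak (4.60%, 2.75 to 7.18), close to the 5.29% of all Ctrl peaks. All 18 were young L1, 18 of 224 (8.04%, 4.83 to 12.4), against 0 of 165 other L1 peaks (upper bound 2.21%). They comprised 11 L1Md_T, 5 L1Md_A and 2 L1Md_F2 elements, had the same name in both lists, and lay 8 to 124 bp apart with a median of 30.5 bp. Seen from siSCR, 19 of 619 LINE peaks overlapped a Ctrl peak (3.07%), against 2.34% of all siSCR peaks, 18 of 359 young L1 peaks (5.01%, 3.0 to 7.81) and 1 of 253 other L1 peaks (0.395%, 0.0100 to 2.18). The 18 Ctrl peaks were singled out after their values were seen. Counting an overlap with any peak, whether in a LINE or not, 9 of the 18 were also in Seh1-flag, 2 in Seh1 Ctrl, 2 in siSeh1 and 1 in iKO. Besides the Ctnnd2 element they included L1Md_T elements in introns of Lrmda (chr14:22831413, score 11.9 in Ctrl and 8.40 in siSCR), Nxph1 (chr6:9143283, score 10.9 in Ctrl and 9.32 in siSCR) and Grid1 (chr14:35399585, score 10.3 in Ctrl and 10.0 in siSCR). Nxph1 encodes neurexophilin, a ligand of neurexins, and Grid1 a delta-type glutamate receptor. Seh1-flag as the other list gave less contrast by age: 28 of 224 young L1 peaks of Ctrl (12.5%, 8.47 to 17.6) and 14 of 165 other L1 peaks (8.48%, 4.72 to 13.8) overlapped it, against 10.5% of all Ctrl peaks. In siSCR 42 of 619 LINE peaks overlapped Seh1-flag (6.79%), against 6.83% of all siSCR peaks.

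Over all 6 lists the LINE peaks formed 21528 loci, of which 98.6% were in 1 list, 283 in 2, 24 in 3 and 2 in 4. All peaks merged in the same way gave 97.8% in 1 list, and intronic and intergenic peaks outside LINEs gave 98.7%, so the LINE value is close to that of other peaks of such places. Loci in 3 or more lists were 0.121% of LINE loci, 0.478% of all loci and 0.25% of intronic and intergenic loci outside LINEs. Of the 26 LINE loci in 3 or more lists, 20 were young L1 and 18 were L1Md_A, L1Md_T or L1Md_Gf, against 37.8% and 20.3% of all LINE loci. Counting LINE peaks only, the loci in 4 lists were both L1Md_T. One was intergenic near Gm12724 (chr4:105740383-105740722), with scores of 6.17 in Ctrl, 5.80 in siSeh1, 4.33 in siSCR and 2.96 in Seh1-flag. The other was the Lrmda intron (chr14:22831245-22831612), in Ctrl, siSCR and both Seh1 lists, where Seh1-flag scored 7.29. The most common combination of 3 lists was Ctrl, siSCR and Seh1-flag, with 6 loci. An L1Md_A element in an intron of Lingo2 (chr4:36611520-36611817) was shared by iKO (score 9.14), Ctrl (8.48) and siSCR (5.64). An L1Md_T element in an intron of Sycp1, which encodes a protein of the meiotic synaptonemal complex (chr3:102838020-102838308), was shared by iKO (5.47), siSCR (5.23) and Seh1 Ctrl. Not all repeated loci were young: an Lx8 element on chromosome 2 (chr2:139045116-139045688) was shared by iKO (3.01), siSCR (3.94) and Seh1-flag (4.65), and elements named Lx, L1_Mus1 and Lx2A1 close to Speer8-ps1 on chromosome 5 were each in 3 lists, among them siSCR and Seh1-flag.

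Most LINE peaks lay between genes. The intergenic share of LINE peaks was 79.4% in iKO and 81.6% in Ctrl, 77.7% in siSeh1 and 80.3% in siSCR, and 78.2% in Seh1-flag and 77.6% in Seh1 Ctrl, while that of all peaks ranged between 54.3% in siSeh1 and 73.7% in Ctrl. The intronic rest, 4729 peaks, was spread over many genes, and 99.7% of them matched a RefSeq gene. In iKO 1063 such peaks lay in 758 genes, against 70 peaks in 66 genes in Ctrl. In siSeh1 1117 lay in 861 genes, against 121 in 114 genes in siSCR. The genes with the most intronic LINE peaks in the deletion pair were Dnah7c, an axonemal dynein gene with 8 in iKO and 1 in Ctrl, Epha6 and Galnt13, a glycosyltransferase gene with 8 in iKO and 0 in Ctrl. Epha6, an ephrin receptor gene of 969479 bp, had 8 in iKO and 0 in Ctrl, and 6 in siSeh1 and 0 in siSCR. Cntnap2, a neurexin-family adhesion gene of 2241333 bp, had 6 in iKO and 1 in Ctrl, and 5 in siSeh1 and 1 in siSCR. Dmd, the dystrophin gene, and Ptprd, a receptor phosphatase gene, each had 10 in siSeh1 and 0 in siSCR, and Il1rapl2 had 7 and 0. All intronic peaks numbered 21 and 0 in Dmd (2390387 bp), 21 and 2 in Ptprd (2270506 bp) and 13 and 0 in Il1rapl2 (1278324 bp). These genes were chosen by their number of peaks. The siSeh1 list holds 8.13 times the LINE peaks of siSCR, and iKO 13.2 times those of Ctrl. Il1rapl1, a synaptic receptor gene on chromosome X, had 5 in iKO and 3 in Ctrl. Nkain2 had 11 in Seh1-flag and 3 in Seh1 Ctrl, and Lrp1b, a lipoprotein receptor-related gene, had 8 in Seh1-flag and 7 in Seh1 Ctrl. Naaladl2 had 7 in each, and Gm21119, a gene of 32346 bp, had 8 in Seh1-flag and 3 in Seh1 Ctrl.

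By the deposited distances, 15 LINE peaks lay within 1 kb of a transcription start site, all at positive distances between 234 and 929 bp. Peaks with a promoter annotation carry no repeat name, and the Lx7 and Lx2B2 peaks printed above, directly upstream of RefSeq gene starts, are not among the 15, so these counts do not measure how many LINE peaks are at promoters. They comprised 3 in iKO and 0 in Ctrl, 3 in siSeh1 and 1 in siSCR, and 2 in Seh1-flag and 6 in Seh1 Ctrl, 11 of them at protein-coding genes, and no gene had one in 2 lists. In iKO they were at Cyp2c29, a cytochrome P450 gene, Vmn2r16, a vomeronasal receptor gene, and Gm3139. In siSeh1 they were at Pate4, Gm13023 and the noncoding 4930556J02Rik.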

How the data were processed

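The authors' deposited files are peak lists annotated on mm10, per the file headers, with a deposited peak score per peak whose scale is not stated and a signed distance to the nearest transcription start site (TSS). Per the submitters' processing notes the tools included Bowtie2 and HOMER, with no version, and human builds stand there beside the mouse data. The peak caller, its threshold, the input, pooling and the placement of reads with several matches were not given in the sources used here.

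Of the 6 lists, 5 hold single positions, which were widened to windows of 240 bp, and Seh1 Ctrl holds intervals. LINE peaks were taken from the detailed annotation, L1 age classes from names, and host genes from RefSeq (GRCm38.p6). Shares carry Clopper-Pearson 95% intervals (scipy 1.17.1) and differences Newcombe intervals (statsmodels 0.14.6). Peaks of equal score were ordered by position. A name was called at 2-fold, and a name at 0 in a list was set to 3 peaks. Code in Python 3.11.15 with numpy 2.4.6 and pandas 2.3.3 was tested on simulated data. Depth is unknown, and 1 library per group allows no test.

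The members, classes and lists were chosen with earlier results of these data known. Names printed were the 6 most frequent per list, up to 5 called names per direction, the 5 highest-scoring LINE peaks per scored list, loci in 3 or more lists, and genes with the most intronic LINE peaks. L1MEd, L1MEg, Lx6, Lx3_Mus, Lx5, L1Md_T in the Seh1 pair and the peaks shared by Ctrl and siSCR were chosen after seeing their values, outside this rule. So were Lx8b and L1MB7 in the silencing pair. Alternatives changed list length, score limit, chromosomes, peaks near a TSS, denominator, age classes, window, overlap, fold, floor and peak minimum.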

Additional observations from a re-analysis of the deposited data

Results flagged for a closer look

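Some shares had opposite signs in the deletion pair (iKO minus Ctrl) and the silencing pair (siSeh1 minus siSCR). With 1 library per group the difference between the pairs was not tested. The murine share of L1 peaks differed by -0.648 points in the deletion pair and by 3.90 points in the silencing pair. The old share of L1 peaks differed by -1.28 points in the deletion pair and by 4.04 points in the silencing pair. The share of LINE peaks on chromosome X differed by -18.4 points in the deletion pair (9.47% in iKO, 27.9% in Ctrl) and by 3.94 points in the silencing pair (11.1% in siSeh1, 7.11% in siSCR). The murine and old differences of the deletion pair have Newcombe intervals that include 0.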

How the results depend on the processing

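Of 104 recomputed values, 64 were counted as the same, 38 moved and 2 reversed. A share or difference of shares was the same when it lay within the interval of the main value, which is wide where Ctrl is involved. Only differences of shares could reverse, while overlap shares and counts of names could not. The reversals were the LINE share of iKO with siSCR as its control (0.554 points, a setting added after seeing the data) and the young L1 share of iKO shortened by score to the length of Ctrl (6.20 points, -3.70 to 15.5). With the longer list shortened, the LINE share differed by -22.8 points in the deletion pair, -15.4 in the silencing pair and -4.57 in the Seh1 pair, and the young share by -12.7 in the silencing pair and -13.2 in the Seh1 pair. Peaks near a TSS score higher than LINE peaks in iKO and siSeh1, and their part in these LINE differences was not tested. As a share of interspersed repeat peaks, the LINE difference was -12.5 points in the deletion pair, -3.05 in the silencing pair and -5.75 in the Seh1 pair. In the silencing pair the LINE difference was -7.05 points without peaks within 1 kb of a TSS and -7.31 among intronic and intergenic peaks (added after seeing the data). Above the median score the silencing pair differed by -2.42 points in the L1 share of LINE peaks and by -28.4 in the young share. The young share of the deletion pair differed by -19.0 points on chromosomes 1 to 19. With young narrowed to L1Md_A, L1Md_T and L1Md_Gf it differed by -18.5 in the deletion pair and -26.9 in the silencing pair. With young and murine classes joined the Seh1 pair differed by -0.0386 points. At 3-fold the names called higher and lower were 6 and 0 in the deletion pair, 6 and 1 in the silencing pair, and 4 and 1 in the Seh1 pair. At 50 peaks or more per name, 0 were lower in the deletion pair, 11 higher and 2 lower in the silencing pair, and 4 higher and 0 lower in the Seh1 pair. With names at 1 or 2 peaks also set to 3 (added after seeing the data), 7 were higher in the deletion pair and 11 in the silencing pair. In both these pairs the counts of higher and lower names depend on the peak minimum and cannot be set against each other. With windows of 100 bp, 0.512% of Ctrl LINE peaks overlapped iKO and 0.270% of iKO LINE peaks overlapped siSeh1. With windows of 1000 bp the overlap was 4.35% of Ctrl LINE peaks in iKO, 4.52% of siSCR in siSeh1, 1.76% of Seh1 Ctrl in Seh1-flag and 2.09% of iKO in siSeh1. Window widths apply to lists of single positions only. The Seh1 Ctrl intervals were not widened, so the Seh1 value cannot be set beside the others. With an overlap of at least 50% of the shorter window it was 0.512% of Ctrl in iKO, 0.497% of Seh1 Ctrl in Seh1-flag and 0.309% of iKO in siSeh1. The cause of these shifts was not tested, apart from the windows and limits themselves. A limit at the median score could not be set in the Seh1 pair, since all Seh1 Ctrl scores are 0. No paired analysis was possible because each group has 1 library. Depth is unknown, so a list's length and the depth of its library cannot be told apart.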

Other observations

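LINE peaks were more frequent on chromosome X than other peaks in all 6 lists, and the Ctrl list of Chd4 stood apart. In iKO 9.47% of LINE peaks (8.68 to 10.3) and 3.65% of other peaks lay on X. In Ctrl 27.9% of LINE peaks (23.5 to 32.6) and 21.6% of other peaks did, so the high X share of that list was not limited to LINEs. The X share of LINE peaks was 11.1% in siSeh1 and 7.11% in siSCR, and 8.40% in Seh1-flag and 12% in Seh1 Ctrl. In Ctrl 21.9% of young L1 peaks (16.6 to 27.9) and 35.8% of other L1 peaks (28.5 to 43.6) were on X. Bins of 200 kb with 10 or more peaks held 47 of the 391 LINE peaks of Ctrl (12%) but 7 of 5176 in iKO (0.135%), and the neighbouring bins chrX:31000001-31200000 and chrX:31200001-31400000 held 7 and 9 of the 47.

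Genes nearest to LINE peaks belonged more often to the chemosensory receptor families than genes nearest to all peaks in the 4 long lists. Vomeronasal receptor genes, which encode pheromone receptors, were nearest to 2.82% of LINE peaks in iKO (2.39 to 3.31) and 1.26% of all iKO peaks, and to 2.31% of LINE peaks in siSeh1 (1.91 to 2.76) and 0.887% of all siSeh1 peaks. In Seh1-flag the shares were 2.99% of LINE peaks and 1.36% of all peaks. Olfactory receptor genes were nearest to 2.76% of LINE peaks in iKO and 1.62% of all iKO peaks, and to 2.35% of LINE peaks in siSeh1 and 1.17% of all siSeh1 peaks. Their shares of LINE peaks and of all peaks were 2.25% and 1.19% in Seh1-flag and 2.20% and 1.43% in Seh1 Ctrl. In Ctrl they were 2.30% and 1.56%, and in siSCR 2.10% and 1.53%. The vomeronasal shares were 1.28% and 0.693% in Ctrl, 2.26% and 1.61% in siSCR, and 2.33% and 1.20% in Seh1 Ctrl. Zinc finger genes were nearest to 0.811% of LINE peaks in iKO and 1.16% of all iKO peaks. Cadherins and protocadherins, adhesion molecules of neurons and their precursors, were nearest to 1.62% of LINE peaks in iKO (1.30 to 2.01) and 0.977% of all iKO peaks, and to 1.53% in siSeh1 (1.21 to 1.91) and 0.728% of all siSeh1 peaks. This was not seen in every list: the shares of LINE peaks and of all peaks were 0.512% and 0.780% in Ctrl, 0.808% and 0.806% in siSCR, 1.57% and 0.962% in Seh1-flag, and 1.34% (1.04 to 1.69) and 1.07% in Seh1 Ctrl. All peaks include those with a promoter annotation, which carry no repeat name. LINE density around these genes was not measured.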
